A study of Mus musculus with 2 samples.

Results

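The cyclins of the A, B, D and E families were followed through mouse spermatogenesis, from spermatogonia to elongating spermatids, and through the somatic cells of the testis. The 10 genes Ccna1, Ccna2, Ccnb1, Ccnb2, Ccnb3, Ccnd1, Ccnd2, Ccnd3, Ccne1 and Ccne2 were taken by symbol, and all 10 were among the 41459 genes listed in both count matrices. Droplet-based single-cell RNA sequencing of whole testis gave 1 library from Rad21l+/+ mice (WT) and 1 from Rad21l-/- mice (KO), both at 55 days of age. RAD21L is a subunit of cohesin made in meiotic cells. The labels give neither the strain, the kind of mutation, nor the number of mice behind each library. Levels are UMIs (unique molecular identifiers, each standing for 1 captured transcript) summed over the cells of a class and given as CPM, counts per 1000000 UMIs of that class. With 1 library per genotype no test was possible, since cells of 1 library are not replicates of a genotype. The 95% intervals in parentheses are exact and cover counting error only.

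Cyclins are the regulatory subunits of cyclin-dependent kinases, and their rise and destruction order the steps of the cell cycle. D-type cyclins carry growth signals to CDK4 and CDK6 in the first gap phase, E-type cyclins act with CDK2 at the start of DNA replication, A-type cyclins serve replication and the entry into division, and B-type cyclins with CDK1 drive division itself. Germ cells are known for using these families unevenly: cyclin A2 belongs to mitotic cells, cyclin A1 is largely limited to the male germ line and is needed for the first meiotic division in males, and cyclin B3 is known for its role in meiosis.

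The WT matrix held 5415 barcodes with 33096309 UMIs and the KO matrix 7118 with 28001992, where 5000 to 6000 cells had been aimed for per the labels, and 5211 WT and 5358 KO cells passed the filters. The libraries shared 14 barcodes, 10 of them kept in both. Cells were placed in classes by their summed UMIs of marker genes, with no cyclin among the markers, and "-like" in a class name stands for this choice by markers. The late spermatocyte-like gate asked for at least 0.7% pachytene and 0.15% round spermatid markers and used no marker of the meiotic divisions. Round spermatid markers took a median of 0.364% of UMIs in that class and 0.238% in round spermatid-like cells. Spermatocytes and early round spermatids were thus not told apart in that class. Germ cell classes held 4666 WT and 1472 KO cells and somatic classes 44 and 3487. No KO cell passed a gate beyond zygotene, so pachytene, late spermatocyte and spermatid levels come from WT only and nearly all somatic levels from KO only. Rad21l itself was at 166 CPM (119 to 225, 41 UMIs) in WT preleptotene and leptotene-like cells and at 31.3 CPM (22.5 to 42.5, 41 UMIs) in KO. The part of the gene that the allele removes is not given, so these counts are only a partial check of the labels. Markers of elongating spermatids took a median of 1.01% of UMIs in WT differentiating spermatogonia-like cells and 0% in KO, and Sertoli markers 0.0228% and 0.198%. Such UMIs of other cells' markers, which free RNA or a second cell in a droplet can give, thus differed between the libraries. Of the cells in a class, 3 of 33 WT and 18 of 222 KO zygotene-like and 43 of 159 WT early pachytene-like cells lay within 25% above the threshold of their gate.

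Cyclin transcripts were present in every germ cell class, while the family member that gave the most UMIs differed from class to class. Shares between genes are shares of UMIs, each counted once per molecule and not scaled by transcript length. Summed over the 10 genes, the WT level was 833 CPM (712 to 969) in undifferentiated and 856 CPM (793 to 923) in differentiating spermatogonia-like cells, and 878 CPM (765 to 1003) in preleptotene and leptotene-like cells. It was 458 CPM (366 to 566) in zygotene-like and 373 CPM (352 to 394) in early pachytene-like cells, the lowest of the spermatocyte classes. It was 489 CPM (475 to 502) in mid pachytene-like, 742 CPM (708 to 777) in late spermatocyte-like, 453 CPM (434 to 472) in round spermatid-like and 163 CPM (154 to 171) in elongating spermatid-like cells. The largest share of cyclin UMIs came from Ccnd2 in WT undifferentiated spermatogonia-like cells (35.1%), Ccnd1 in differentiating ones (32.7%) and Ccne2 in preleptotene and leptotene-like cells (58.1%). Ccnb2 gave the largest share in zygotene-like, early pachytene-like, late spermatocyte-like and round spermatid-like cells (30% to 43.1%), Ccna1 in mid pachytene-like cells (38.2%) and Ccnd3 in elongating spermatid-like cells (45.2%).

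**Figure D1:**
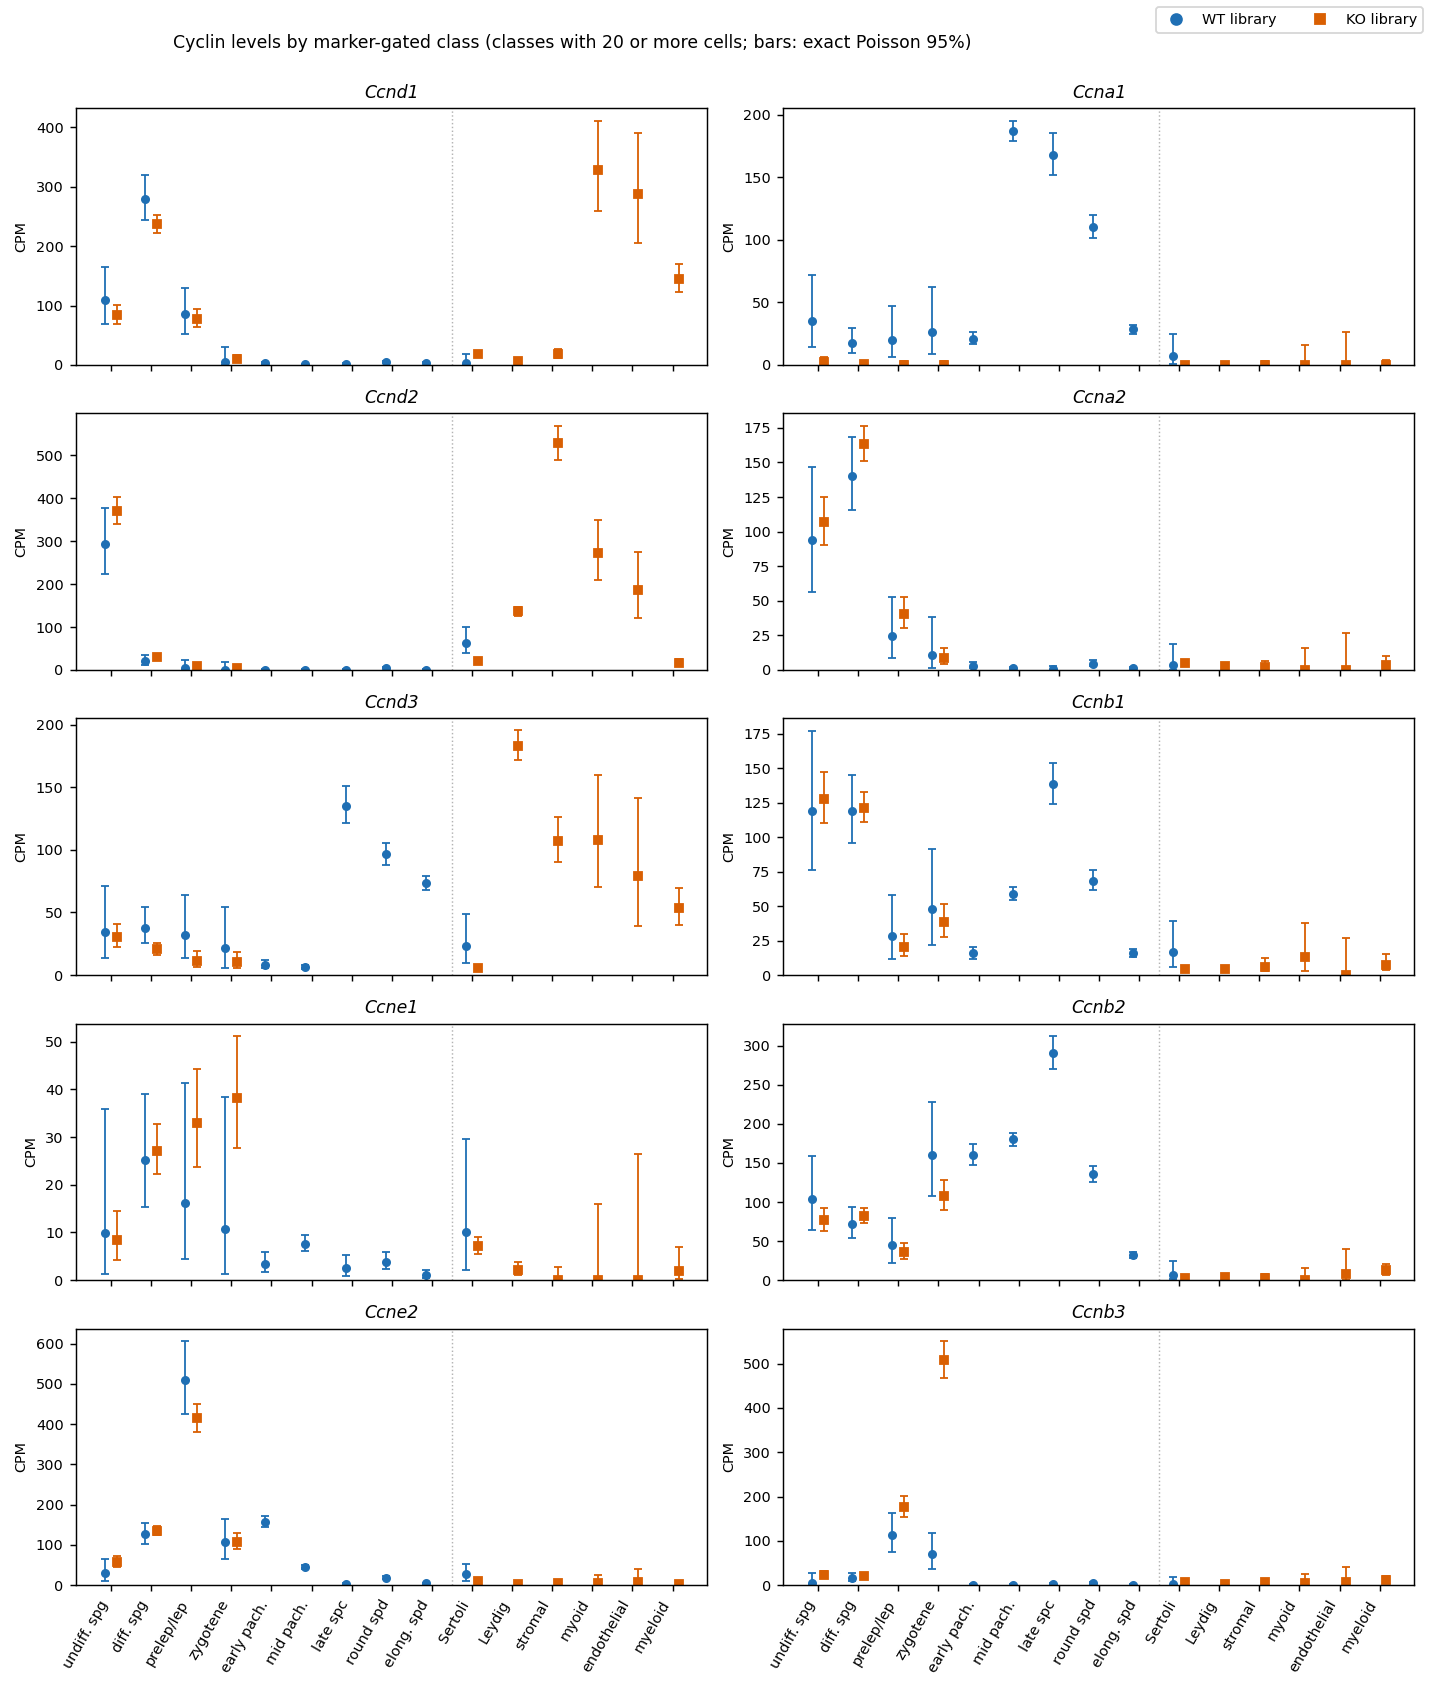
Level of each cyclin (CPM, linear axes from 0) in the germ cell classes, left of the dotted line, and the somatic classes, right of it, for classes with 20 or more cells. Circles are the WT and squares the KO library, 1 each, and bars are exact Poisson 95% intervals. Ccnb3 in zygotene-like cells stands at 508 CPM in KO and 69.3 CPM in WT, and Ccna1 is high only in WT classes that no KO cell reached.

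Of the D-type cyclins, which answer growth signals, Ccnd2 was highest in undifferentiated and Ccnd1 in differentiating spermatogonia-like cells among the germ classes. Ccnd2 was at 293 CPM (223 to 377, 59 UMIs) in WT and 369.6 CPM (339 to 402, 533 UMIs) in KO undifferentiated spermatogonia-like cells. In differentiating spermatogonia-like cells it was at 21.5 CPM (12.5 to 34.4, 17 UMIs) in WT and 30.7 CPM (25.5 to 36.7, 120 UMIs) in KO. The undifferentiated class was thus the higher in both libraries, 13.6-fold (7.84 to 24.9) in WT and 12.0-fold (9.86 to 14.8) in KO. Ccnd1 ran the other way. It was at 109 CPM (68.4 to 165, 22 UMIs) in WT and 83.9 CPM (69.6 to 100.3, 121 UMIs) in KO undifferentiated cells, and at 280.3 CPM (245 to 319.7, 222 UMIs) and 237 CPM (222 to 253, 927 UMIs) in differentiating cells. The differentiating class was thus the higher, 2.57-fold (1.66 to 4.18) in WT and 2.83-fold (2.34 to 3.45) in KO. In preleptotene and leptotene-like cells Ccnd1 was at 85.0 CPM (21 UMIs) in WT and 78.0 CPM (102 UMIs) in KO. The WT UMIs lay in 9 of 53 cells, with 11 of them in 1 cell. The KO UMIs lay in 74 of 319 cells, with up to 4 in a cell. In zygotene-like cells Ccnd1 was at 5.33 CPM (0.135 to 29.7, 1 UMI) in WT and 9.54 CPM (4.76 to 17.1, 11 UMIs) in KO. Neither Ccnd1 nor Ccnd2 was above 5.25 CPM in any WT class from early pachytene-like to elongating spermatid-like.

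Ccnd3 was the D-type cyclin of the late germ line. In WT it was at 8.10 CPM (5.34 to 11.8, 27 UMIs) in early pachytene-like and 6.47 CPM (5.01 to 8.22, 67 UMIs) in mid pachytene-like cells. The level in late spermatocyte-like cells was 135 CPM (121 to 151, 331 UMIs), which is 20.9-fold (16.1 to 27.6) that of mid pachytene. It was at 96.7 CPM (88.2 to 106, 479 UMIs) in round spermatid-like and 73.5 CPM (68.0 to 79.3, 659 UMIs) in elongating spermatid-like cells. In spermatogonia and early prophase it was at 21.3 to 37.9 CPM in the WT classes and at 10.4 to 30.5 CPM in the KO classes. The WT values are 41.5% to 73.7% of the level over all WT barcodes (51.4 CPM), most of which are spermatid-like, and the part of free RNA in them was not tested.

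Among the E-type cyclins, Ccne2 marked the entry into meiosis. It was at 126 CPM (103 to 154, 100 UMIs) in WT and 135 CPM (124 to 147, 528 UMIs) in KO differentiating spermatogonia-like cells. In preleptotene and leptotene-like cells, where the last DNA replication before meiosis takes place, it was at 509.7 CPM (425 to 607, 126 UMIs) in WT and 414 CPM (380.1 to 451, 542 UMIs) in KO. The ratio to the differentiating class was 4.04 (3.08 to 5.30) in WT and 3.07 (2.72 to 3.46) in KO. At least 1 Ccne2 UMI was found in 213 of 319 KO cells (66.8%, 61.3% to 71.9%) at a median of 3681 UMIs per cell, against 76 of 1692 KO cells (4.49%, 3.56% to 5.59%) of the Sertoli-like class at 5812. With every cell thinned to 1000 UMIs the counts were 90 (28.2%, 23.3% to 33.5%) and 19 (1.12%, 0.677% to 1.75%). Ccne2 then stood at 107 CPM (65.1 to 165) in WT zygotene-like, 157 CPM (143 to 171) in early pachytene-like, 44.8 CPM (40.8 to 49.1) in mid pachytene-like and 3.27 CPM (1.41 to 6.45) in late spermatocyte-like cells. The KO zygotene-like level was 108 CPM (90.3 to 129), next to the WT one. Ccne1 was low throughout. Its WT levels ran from 1.11 CPM in elongating spermatid-like to 25.3 CPM (15.4 to 39.0, 20 UMIs) in differentiating spermatogonia-like cells. In KO the order was 27.1 CPM (22.2 to 32.8, 106 UMIs), 32.9 CPM (23.8 to 44.3, 43 UMIs) and 38.2 CPM (27.7 to 51.2, 44 UMIs) from differentiating spermatogonia to zygotene, neighbours whose ratios have intervals that include 1.

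Of the A-type cyclins, Ccna2 was high in spermatogonia and Ccna1 from mid pachytene on. Ccna2 was at 140.2 CPM (115 to 169, 111 UMIs) in WT and 163 CPM (151 to 177, 639 UMIs) in KO differentiating spermatogonia-like cells. In preleptotene and leptotene-like cells it was at 24.3 CPM (8.91 to 52.8, 6 UMIs) and 40.5 CPM (30.3 to 53.0, 53 UMIs), so that the differentiating class was higher by 5.77-fold (2.57 to 16.1) in WT and 4.04-fold (3.05 to 5.45) in KO. From early pachytene-like cells on, no WT class was above 4.64 CPM. Ccna1 had the reverse pattern. It was at 21.0 CPM (16.4 to 26.5, 70 UMIs) in WT early pachytene-like and 187 CPM (179 to 195, 1936 UMIs) in mid pachytene-like cells, higher by 8.90-fold (7.01 to 11.5). It was at 168 CPM (152 to 185, 411 UMIs) in late spermatocyte-like, 110.4 CPM (101.3 to 120.1, 547 UMIs) in round spermatid-like and 28.3 CPM (24.9 to 32.0, 254 UMIs) in elongating spermatid-like cells. At least 1 Ccna1 UMI was found in 243 of 300 WT cells (81.0%, 76.1% to 85.3%) of the mid pachytene-like class, at a median depth of 34154 UMIs, and in 2 of 32 WT cells (6.25%, 0.766% to 20.8%) of the Sertoli-like class, which should lack the gene, at 9278 UMIs. Thinned to 1000 UMIs a cell, the counts were 51 (17.0%, 12.9% to 21.7%) and 0 (0%, 0% to 10.9%). The KO library held 10 Ccna1 UMIs in all, 0.357 CPM. None of these lay in KO preleptotene and leptotene-like cells, where 0 of 319 cells, taken at the floor of 3 cells, allows a share of cells with a UMI of up to 0.940%, or in zygotene-like cells, where 0 of 222 cells, taken at the floor of 3 cells, allows a share of cells with a UMI of up to 1.35%. The WT spermatogonia and early prophase classes held 5 to 14 UMIs each, at 17.7 to 34.7 CPM, which is 17.2% to 33.8% of the level over all WT barcodes.

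Ccnb1 and Ccnb2, whose products drive entry into division, were lower at the start of meiosis than in WT late spermatocyte-like cells. Ccnb1 was also higher in differentiating spermatogonia than at the start of meiosis. It was at 119 CPM (95.9 to 145, 94 UMIs) in WT and 121 CPM (111 to 133, 474 UMIs) in KO differentiating spermatogonia-like cells and at 28.3 CPM (11.4 to 58.3, 7 UMIs) and 20.6 CPM (13.6 to 30, 27 UMIs) in preleptotene and leptotene-like cells. The differentiating class was higher by 4.19-fold (1.96 to 10.7) in WT and 5.88-fold (3.99 to 9.01) in KO. In WT it was at 15.6 CPM (11.7 to 20.5) in early pachytene-like, 58.9 CPM (54.3 to 63.8) in mid pachytene-like and 138 CPM (124 to 154) in late spermatocyte-like cells. The late spermatocyte level was 8.86-fold (6.60 to 12.1) the early pachytene one. Ccnb2 was at 72.0 CPM (54.5 to 93.2, 57 UMIs) in WT and 82.4 CPM (73.6 to 91.9, 322 UMIs) in KO differentiating spermatogonia-like cells. These were 1.62-fold (0.839 to 3.42) the preleptotene and leptotene level in WT, an interval that includes 1, and 2.29-fold (1.68 to 3.18) in KO. Ccnb2 was at 44.5 CPM (22.2 to 79.6, 11 UMIs) in WT and 35.9 CPM (26.4 to 47.8, 47 UMIs) in KO preleptotene and leptotene-like cells and at 159.8 CPM (108 to 228, 30 UMIs) and 108 CPM (89.5 to 128, 124 UMIs) in zygotene-like cells. The zygotene class was higher by 3.59-fold (1.75 to 7.94) in WT and 2.99-fold (2.12 to 4.28) in KO. In WT it was at 161 CPM (147 to 175) in early pachytene-like, 180.2 CPM (172 to 189) in mid pachytene-like and 291 CPM (269.8 to 313) in late spermatocyte-like cells, its highest class, then 136 CPM (126 to 146) and 32.4 CPM (28.8 to 36.4) in round and elongating spermatid-like cells.

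Ccnb3, an X-linked gene, was high in WT in 2 neighbouring classes, preleptotene and leptotene-like and zygotene-like. In WT it was at 16.4 CPM (8.74 to 28.1, 13 UMIs) in differentiating spermatogonia-like cells, 113 CPM (75.3 to 164, 28 UMIs) in preleptotene and leptotene-like cells, 69.3 CPM (36.9 to 118, 13 UMIs) in zygotene-like cells and 1.5 CPM (0.487 to 3.50, 5 UMIs) in early pachytene-like cells. The preleptotene and leptotene level was 75.5-fold (28.8 to 250.4) the early pachytene one. From mid pachytene to elongating spermatids it was at 0.965 to 4.44 CPM. In KO it was at 21.5 CPM (17.1 to 26.6, 84 UMIs), 177 CPM (155 to 201, 231 UMIs) and 508 CPM (468 to 551, 586 UMIs) in the first 3 of these classes, so that the KO level was still higher in zygotene-like cells, by 2.88-fold (2.47 to 3.37), where the WT ratio of zygotene to preleptotene was 0.611 (0.291 to 1.22).

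Promoter sequences were at hand for 6 of the 10 cyclins, from RefSeq on GRCm38.p6, not the GRCm39 build of the matrices. The 250 bases before the start site are shown for 4 of these 6, Ccna1, Ccnb1, Ccnb2 and Ccnb3, 5′ to 3′ on the gene's strand. Capitals mark the motifs searched, on both strands. TTTGAA is the CHR element of cell cycle promoters, CCAAT the box of NF-Y, TTTGGCGC or TTTCCCGC that of E2F, AACNG that of MYB proteins, CNCCTCAG that given for STRA8 and TGACGTCA the CRE element.
Ccna1, chr3:55055056-55055305, minus strand: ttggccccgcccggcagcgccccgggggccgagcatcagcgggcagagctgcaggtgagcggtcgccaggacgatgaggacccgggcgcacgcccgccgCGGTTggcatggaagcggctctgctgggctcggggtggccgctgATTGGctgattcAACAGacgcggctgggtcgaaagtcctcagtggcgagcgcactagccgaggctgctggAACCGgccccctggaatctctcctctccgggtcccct
Ccnb1, chr13:100786487-100786736, minus strand: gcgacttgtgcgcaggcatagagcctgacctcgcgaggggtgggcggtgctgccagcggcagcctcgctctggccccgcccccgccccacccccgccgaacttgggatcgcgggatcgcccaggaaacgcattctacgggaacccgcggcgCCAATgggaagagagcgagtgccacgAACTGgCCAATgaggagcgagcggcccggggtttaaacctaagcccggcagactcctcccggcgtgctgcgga
Ccnb2, chr9:70421555-70421804, minus strand: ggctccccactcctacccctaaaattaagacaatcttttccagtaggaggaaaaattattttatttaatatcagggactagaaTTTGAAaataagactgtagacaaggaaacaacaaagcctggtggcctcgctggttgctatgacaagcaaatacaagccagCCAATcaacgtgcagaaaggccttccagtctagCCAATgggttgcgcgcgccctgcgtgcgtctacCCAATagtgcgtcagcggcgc
Ccnb3, chrX:7041620-7041869, minus strand: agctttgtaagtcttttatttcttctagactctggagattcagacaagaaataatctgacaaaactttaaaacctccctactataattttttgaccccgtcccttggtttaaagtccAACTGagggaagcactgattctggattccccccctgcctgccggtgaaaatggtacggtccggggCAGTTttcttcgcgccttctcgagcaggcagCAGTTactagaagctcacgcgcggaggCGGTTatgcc
Counted over 300 bases, from 250 before to 50 after the start site, Ccnb2 held 3 CCAAT and 2 CHR matches. As many were found in 3.37% and 2.31% of all promoters of this length, and at least 1 in 37.4% and 17.9%. The CHR match 4 bases after the start site is not among the printed bases. Ccnb1 held 2 CCAAT matches, as many as 11.7% of promoters. It also held 3 MYB matches, as many as 27%, of which those 2 and 7 bases after the start site are not printed. It held no TTTGAA, the only form of the CHR element that was searched. Ccna1 held 1 CCAAT match, on the opposite strand, and 3 MYB matches, as many as 27% of promoters, while at least 1 MYB match was found in 80.3%. Ccnb3 held no CCAAT and 7 MYB matches, as many as 0.533% of promoters, 3 of them after the start site. No E2F or CRE match was found in any of the 6 genes, which hold for 1.56% and 1.79% of promoters. Ccne1, whose promoter is not printed, held 1 STRA8 match, as many as 7.94% of promoters. A match is a run of letters and was not tied to any factor here. No match printed here overlaps another.

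Finer bins within the WT classes placed these turns relative to one another. The 459 early and mid pachytene-like cells were split into 6 bins by their falling share of 6 zygotene markers (Rad51ap2, Meiob, Sycp1, Sycp2, Hormad1 and Spata22), none of them a cyclin. Ccne2 was at 157 CPM (138 to 177) in the bin with the most zygotene markers and at 157 CPM (138 to 176), 118 CPM (103 to 135), 60.6 CPM (51.3 to 71.1), 18.4 CPM (14.8 to 22.5) and 1.11 CPM (0.0281 to 6.18) in the next 5. Ccna1 was at 21.1 CPM (14.6 to 29.5), 20.9 CPM (14.6 to 28.9) and 24.3 CPM (17.8 to 32.6) in the first 3 bins and at 75.1 CPM (64.7 to 86.6), 269 CPM (255 to 283) and 366 CPM (328 to 408) in the last 3. Ccna1 was therefore near its starting level until zygotene markers fell under 0.15% of UMIs, the same bin in which Ccne2 was down to 60.6 CPM. Ccnb1 was at 7.23 CPM (4.28 to 11.4) in that bin and at 78.2 CPM (70.7 to 86.2) and 199 CPM (171 to 229.8) in the last 2, so it was first higher 1 bin after Ccna1. Ccnb2, already high, ranged from 130.5 to 278 CPM over the 6 bins. Ccnd3 was at 3.25 to 18.9 CPM in all of them, below its late spermatocyte level of 135 CPM. The last bin holds 41 cells.

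**Figure D2:**
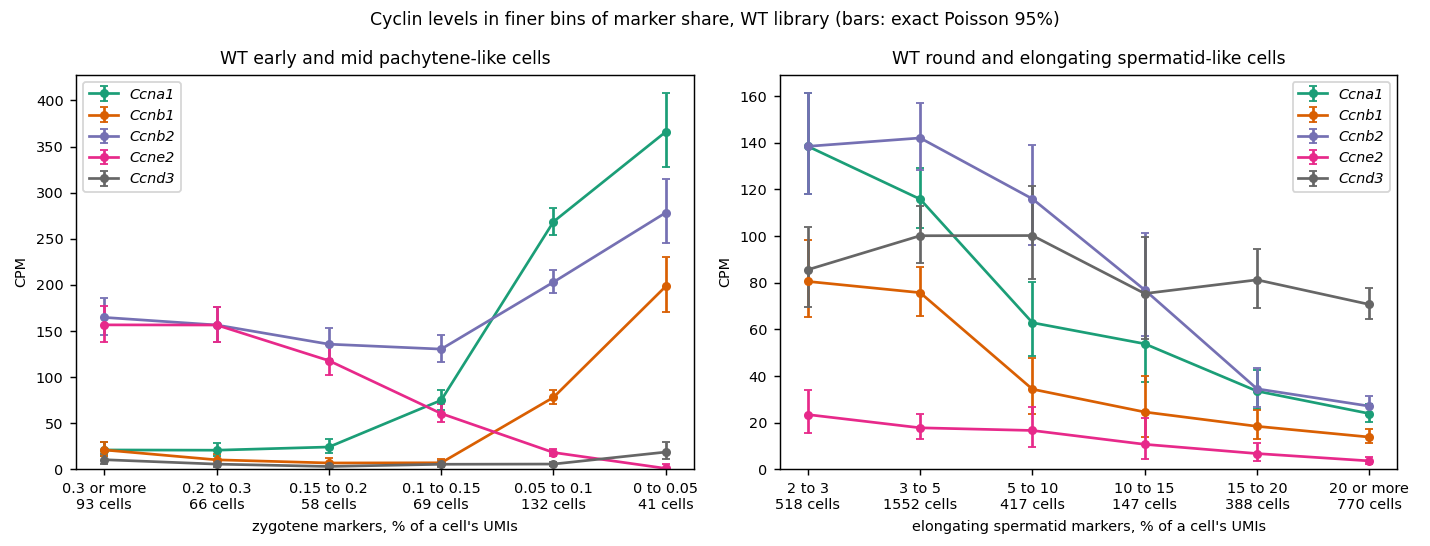
WT levels (CPM) of Ccna1, Ccnb1, Ccnb2, Ccne2 and Ccnd3 in bins of pachytene-like cells by falling zygotene marker share (left) and of spermatid-like cells by rising elongating marker share (right), with cells per bin under each. Bars are exact Poisson 95% intervals. On the left Ccne2 falls from 157 to 1.11 CPM as Ccna1 goes from 21.1 to 366 CPM, and on the right Ccnd3 goes from 85.6 to 70.7 CPM and Ccnb2 from 138 to 27.1 CPM.

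In spermatid-like cells the A and B cyclins were lower with rising elongating markers, and Ccnd3 less so. Over 6 bins of rising elongating marker share, Ccnb1 was at 80.6 CPM (65.3 to 98.4) in the first and 13.9 CPM (11.1 to 17.1) in the last, Ccnb2 at 138 CPM (118 to 161) and 27.1 CPM (23.2 to 31.5), and Ccna1 at 138 CPM (118 to 161) and 23.9 CPM (20.3 to 28.1). Ccnd3 was at 85.6 CPM (69.8 to 104) in the first and 70.7 CPM (64.3 to 77.6) in the last bin. The last to first ratio of Ccnd3 was thus the nearest to 1 of the 4. Because elongating markers themselves take 21.4% of UMIs at the median of the elongating class, every other gene's CPM there is lowered with them. Round spermatid-like cells have a median of 1646 UMIs, against a minimum of 1000 for a cell to be kept, and 5527 in elongating ones.

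The order of levels over the 16 library-by-class pairs with at least 50 cells shows how sharply each cyclin's leading class stood out. Ccnb3 in KO zygotene-like cells was 2.88 (2.47 to 3.37) times the next level, Ccnb2 in WT late spermatocyte-like cells 1.61 (1.48 to 1.76) times, Ccnd2 in KO stromal-like cells 1.43 (1.27 to 1.60) times and Ccnd3 in KO Leydig-like cells 1.35 (1.19 to 1.54) times. For Ccna1, WT mid pachytene-like cells were 1.11 (0.999 to 1.24) times late spermatocyte-like ones, and for Ccnb1, WT late spermatocyte-like cells were 1.08 (0.903 to 1.30) times KO undifferentiated spermatogonia-like cells, so these leading pairs did not differ beyond counting error. The leading pair of Ccna2 was the same class, differentiating spermatogonia-like, in WT and KO, and that of Ccne2 the preleptotene and leptotene-like class in both. Of the 15 neighbouring pairs in each order, the interval of the ratio included 1 in 8 for Ccnb2 and 8 for Ccne2, the fewest, and in 14 for Ccne1, the most.

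Within the pooled undifferentiated and differentiating spermatogonia-like cells, Ccna2 and Ccnb1 followed the genes of cell division, and Ccnd2 went against them. Cells were banded by their share of 8 division genes (Mki67, Top2a, Ube2c, Cenpf, Cenpe, Tpx2, Birc5 and Aurkb) at 0.15% and 0.5% of UMIs, which makes ranges of a score and not cell types. The low, middle and high bands held 25, 87 and 42 WT cells and 155, 498 and 278 KO cells, with 42 WT and 289 KO cells within 25% of the upper boundary. In the KO library, with the more cells, Ccna2 was at 45 CPM (29.9 to 65.0) in the low, 124 CPM (112 to 138) in the middle and 215 CPM (195 to 237) in the high band. Ccnb1 was at 43.4 CPM (28.6 to 63.1), 82.5 CPM (72.2 to 93.9) and 207 CPM (187 to 228). From low to high that is 4.79-fold (3.26 to 7.29) for Ccna2 and 4.76-fold (3.22 to 7.32) for Ccnb1, and 2.89-fold (1.89 to 4.60) for Ccnb2. Ccnd2 was at 178 CPM (147 to 215), 155 CPM (140.3 to 169.9) and 57.2 CPM (47.1 to 68.9), a high to low ratio of 0.321 (0.244 to 0.421). Ccnd1 differed less, at 167, 178 and 231 CPM, and Ccne2 was at 86.8, 126 and 106 CPM. The WT library gave the same directions for Ccnb1, 5.86-fold (2.39 to 18.6), and Ccnd2, 0.369 (0.186 to 0.728). For WT Ccnb2 the ratio was 2.15 (0.943 to 5.75), an interval that includes 1. WT Ccna2 was at 7.48 CPM (0.189 to 41.7), from 1 UMI, in the low band and 213 CPM (165 to 271) in the high one. Median UMIs per cell also rose over the bands, from 3751 to 6422 in KO, and the part of depth in these ratios was not tested. The bands were not split into the undifferentiated and differentiating classes, between which Ccnd2 and Ccnd1 differed as given above. The part of the mix of these classes in the band ratios was not tested either.

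**Figure D3:**
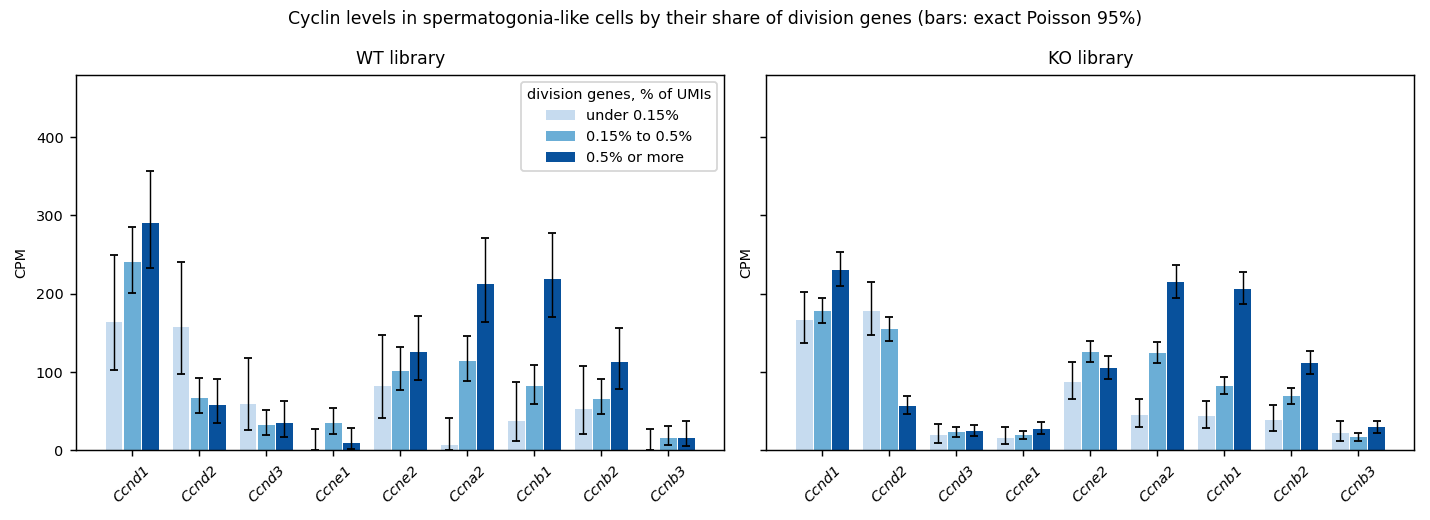
Levels (CPM, bars from 0) of 9 cyclins in spermatogonia-like cells of each library, in 3 bands of the share of division genes, with exact Poisson 95% intervals. In both libraries Ccna2 and Ccnb1 are highest in the darkest bars, between 207 and 219 CPM, and Ccnd2 is lowest there, at 58.0 (WT) and 57.2 (KO) CPM.

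The KO library could be set against WT in 4 germ cell classes, undifferentiated and differentiating spermatogonia-like, preleptotene and leptotene-like and zygotene-like, which held 28, 126, 53 and 33 WT cells and 203, 728, 319 and 222 KO cells. In spermatogonia the sum of the cyclins stood at nearly the same level in both libraries. With both spermatogonia-like classes pooled, Ccnd2 was higher and Ccnd1 and Ccnd3 were lower in KO. Summed over the 10 genes, spermatogonia-like cells were at 851 CPM (795 to 911) in WT and 852 CPM (828 to 877) in KO, a KO over WT ratio of 1.00 (0.930 to 1.08). Over these cells the ratio was 0.798 (0.693 to 0.921) for Ccnd1, 1.60 (1.26 to 2.05) for Ccnd2 and 0.622 (0.428 to 0.925) for Ccnd3. For Ccnd2 it was 1.26 (0.964 to 1.68) in undifferentiated and 1.43 (0.857 to 2.54) in differentiating cells, intervals that include 1. The undifferentiated class, where Ccnd2 is high, gave 201708 of the 993678 pooled UMIs in WT and 1442106 of 5350849 in KO. The part of this mix of classes in the pooled ratios was not tested. All 10 cyclins had at least 20 UMIs over the 2 libraries together, and 1 was past 2-fold, with none higher and Ccna1 lower in KO. In such counts a library with fewer than 3 UMIs of a gene is set to 3. Over all 13312 genes with as many UMIs, 17.7% were past 2-fold, 6.93% higher and 10.8% lower in KO. The median log2 ratio was 0.05 over the 10 cyclins and 0.11 over all these genes. Ratios centred on that median gene change sign for Ccnb1, Ccnb2 and Ccne2 over all spermatogonia-like cells, from 0.04 to 0.10 on the log2 scale to -0.07 to -0.02, so no direction is given for them. In undifferentiated spermatogonia-like cells 0 of 8 cyclins were past 2-fold higher and 0 lower in KO, where 5.6% and 6.81% of all genes were. Ccnb3 in the undifferentiated class, with 1 WT UMI and 33 KO UMIs, had a ratio of 4.62 (0.773 to 188) and is not counted as past 2-fold for that reason. In differentiating ones 0 of 9 cyclins were past 2-fold higher and 0 lower in KO, where 7.36% and 10.5% of all genes were.

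Ccna2, Ccnb1, Ccnb2 and Ccne2 differed by no more than counting error in dividing spermatogonia. In differentiating spermatogonia-like cells the KO over WT ratio was 1.17 (0.952 to 1.44) for Ccna2, 1.02 (0.817 to 1.29) for Ccnb1, 1.14 (0.861 to 1.54) for Ccnb2 and 1.07 (0.862 to 1.34) for Ccne2, intervals that all include 1. Ccnd1 was at 280.3 CPM (WT) and 237 CPM (KO), a ratio of 0.846 (0.730 to 0.984), which turned to 1.15 when cells were classed by clustering instead of gates. Ccnd3 was at 37.9 CPM (25.6 to 54.1, 30 UMIs) in WT and 20.5 CPM (16.2 to 25.5, 80 UMIs) in KO, a ratio of 0.540 (0.351 to 0.852), and at 32.4 CPM (14.0 to 63.8, 8 UMIs) and 11.5 CPM (6.42 to 18.9, 15 UMIs) in preleptotene and leptotene-like cells, a ratio of 0.354 (0.141 to 0.965). Taking off 20% of each library's overall profile as free RNA moved the ratio in differentiating cells to 0.354, farther from 1. Ccnd3 in undifferentiated cells had a ratio of 0.879 (0.393 to 2.31). Ccna1, the 1 cyclin past 2-fold, was at 21.1 CPM (13.1 to 32.3, 21 UMIs) in WT and 1.12 CPM (0.412 to 2.44, 6 UMIs) in KO spermatogonia-like cells. The whole WT library was at 103 CPM and the whole KO library at 0.357 CPM, and the part of free RNA in this difference was not tested.

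**Figure D4:**
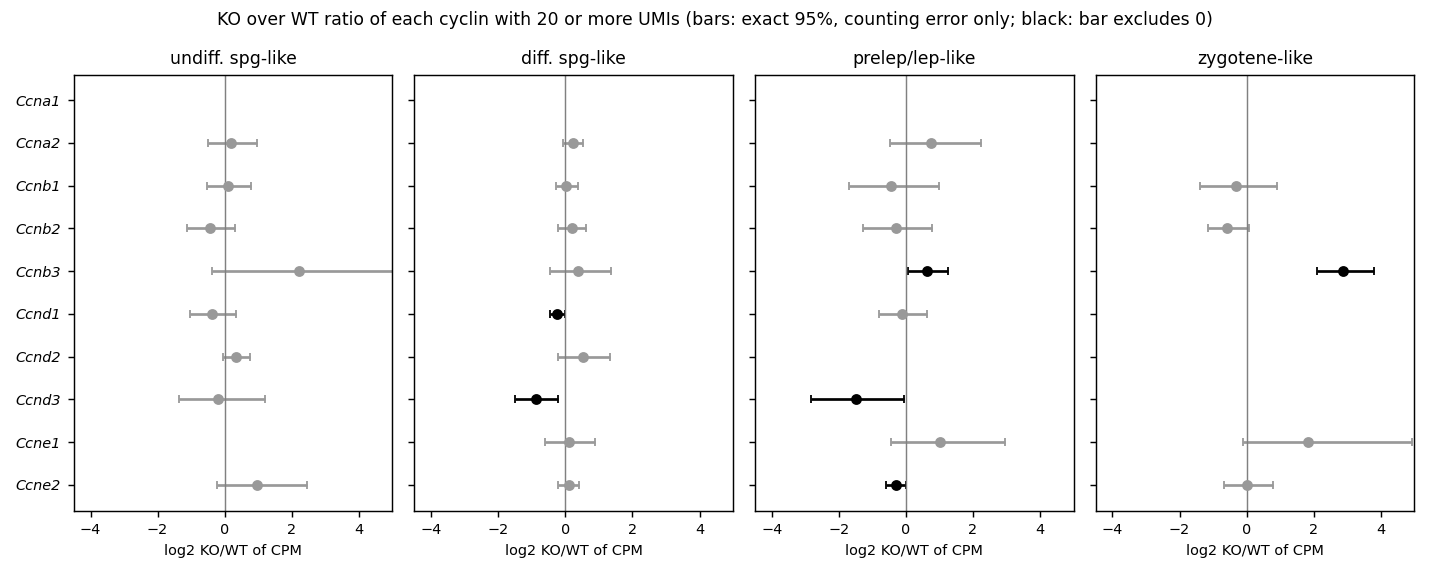
KO over WT ratio of CPM (log2) for each cyclin with at least 20 UMIs over the 2 libraries together, in the 4 germ cell classes that both libraries hold. Bars are exact 95% intervals for counting error, black where they exclude 0, and bars that run off the axis are cut at its edge. Ccnb3 in zygotene-like cells stands farthest from 0, at 2.88.

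In early prophase the libraries parted at Ccnb3. The sum over 10 cyclins was 697 CPM (620.5 to 779.8) in WT and 826 CPM (791 to 863) in KO preleptotene to zygotene-like cells, a ratio of 1.19 (1.05 to 1.34). In zygotene-like cells alone it was 458 CPM (366 to 566) and 835 CPM (783 to 889), and Ccnb3 gave 60.9% of the KO cyclin UMIs there. Of the 8 cyclins with at least 20 UMIs in early prophase, 2 were past 2-fold higher in KO, Ccnb3 and Ccne1, and 1 lower, Ccnd3. The background was 11.2% higher and 10.1% lower over 10634 genes. Since the median gene stood 0.18 above 0 on the log2 scale, centring on it takes the summed ratio to 1.05. The log2 ratios of Ccnb3, Ccne1 and Ccnd3 were 1.82, 1.36 and -1.33 and, centred, 1.64, 1.18 and -1.51.

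Taken by class, in preleptotene and leptotene-like cells 1 of 8 cyclins were past 2-fold higher and 1 lower in KO, where 9.13% and 8.32% of all genes were, namely Ccne1 and Ccnd3. In zygotene-like cells 2 of 5 cyclins were past 2-fold higher and 0 lower in KO, where 12.2% and 8.87% of all genes were, the 2 being Ccnb3 and Ccne1. The Ccne1 ratio was 2.03 (0.738 to 7.79) in preleptotene and leptotene-like cells, from 4 WT and 43 KO UMIs. In zygotene-like cells it was 3.58 (0.934 to 30.5), from 2 WT and 44 KO UMIs. Both intervals include 1, and Ccne1 reached 20 UMIs in each class only through its KO UMIs. Ccnb3 was at 113 CPM (75.3 to 164, 28 UMIs) in WT and 177 CPM (155 to 201, 231 UMIs) in KO preleptotene and leptotene-like cells, a ratio of 1.56 (1.05 to 2.40). In zygotene-like cells, at 69.3 CPM (WT) and 508 CPM (KO), the ratio was 7.34 (4.26 to 13.9). At least 1 UMI was found in 7 of 33 WT cells (21.2%, 8.98% to 38.9%), at a median depth of 5694 UMIs. The same held for 182 of 222 KO cells (82.0%, 76.3% to 86.8%), at 4646 UMIs. KO Sertoli-like cells, which should lack the gene, had one in 60 of 1692 KO cells (3.55%, 2.72% to 4.54%) at 5812 UMIs. Thinned to 1000 UMIs a cell, 5 (15.2%, 5.11% to 31.9%) of the WT, 84 (37.8%, 31.4% to 44.6%) of the KO zygotene-like and 17 (1.00%, 0.586% to 1.60%) of the KO Sertoli-like cells had one.

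The zygotene-like classes of the libraries also differed in pachytene markers, and their part in the Ccnb3 difference was not tested. Zygotene markers took a median of 0.687% of UMIs in WT and 0.769% in KO, and pachytene markers 0.381% and 0.116%, where WT spermatogonia-like cells were already at 0.206% and KO ones at 0.0281%. Among the 14 WT zygotene-like cells with pachytene markers under 0.35%, Ccnb3 was at 24.7 (3.00 to 89.3) CPM, from 2 UMIs, and among the other 19 at 103 (51.4 to 184) CPM. All 222 KO cells were under that limit, so it took out WT cells only. With it the KO over WT ratio was 20.6 (5.66 to 170.1), which rests on those 2 WT UMIs. Binned by zygotene marker share, the KO over WT ratios of Ccnb3 have intervals that overlap between neighbouring bins, so no order over the bins is read from them. Under 0.1% there were 11 WT and 81 KO UMIs, a ratio of 1.15 (0.609 to 2.39). At 0.1% to 0.25% there were 5 WT and 80 KO UMIs, a ratio of 3.81 (1.57 to 12.0). At 0.25% to 0.4% there were 8 WT and 64 KO UMIs, a ratio of 1.22 (0.585 to 2.96). At 0.4% to 0.6% Ccnb3 was at 159.9 CPM (79.8 to 286) in WT and 351 CPM (298 to 411) in KO, a ratio of 2.20 (1.19 to 4.49), and at 0.6% to 0.8% at 126 CPM (77.1 to 195) and 487 CPM (431 to 548), a ratio of 3.86 (2.45 to 6.41). Above 0.8% WT had 6 cells and 1 UMI, and KO was at 506 CPM (451 to 566). The ratio there was 15.6 (2.79 to 619.7) and rests on that 1 WT UMI. For Ccne2 the ratio at 0.25% to 0.4% was 0.810 (0.585 to 1.15), from 505 CPM (367 to 678) in WT and 409.5 CPM (359 to 466) in KO.

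**Figure D5:**
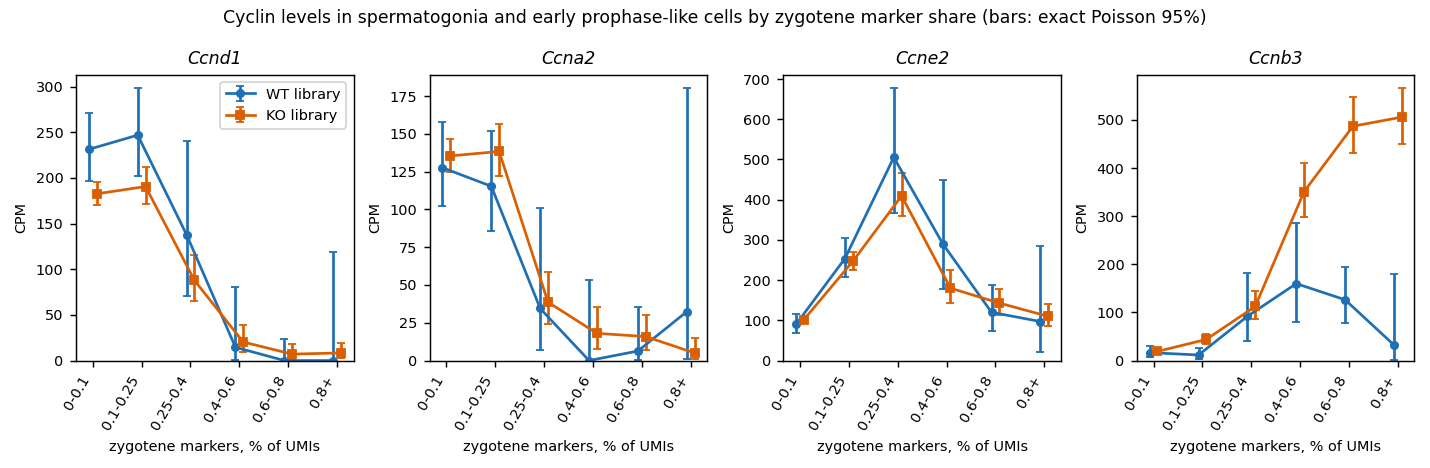
Levels (CPM) of Ccnd1, Ccna2, Ccne2 and Ccnb3 in spermatogonia and early prophase-like cells, binned by the share of zygotene markers, for the WT (circles) and KO (squares) libraries with exact Poisson 95% intervals. Ccnd1 and Ccna2 are low and Ccne2 is past its highest bin on the right in both, while Ccnb3 goes up to 506 CPM in KO and no further than 159.9 CPM in WT.

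The remaining early prophase ratios were smaller or rest on few UMIs. Ccne1 was at 10.7 CPM (1.29 to 38.5, 2 UMIs) in WT and 38.2 CPM (27.7 to 51.2, 44 UMIs) in KO zygotene-like cells, and over all early prophase its ratio was 2.56 (1.13 to 7.17) from 6 WT UMIs. Ccne2 in preleptotene and leptotene-like cells had a ratio of 0.813 (0.668 to 0.995) and in zygotene-like cells of 1.02 (0.632 to 1.72). Ccnb2 in zygotene-like cells had a ratio of 0.673 (0.449 to 1.04) and Ccnb1 of 0.796 (0.384 to 1.85), intervals that include 1.

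In the somatic classes most cyclin UMIs came from the D-type genes, led by Ccnd2 in stromal-like, Ccnd3 in Leydig-like and Ccnd1 in myoid-like, endothelial-like and myeloid-like cells. In the KO library, stromal-like cells were at 528 CPM (489 to 569, 690 UMIs) of Ccnd2, 107 CPM (90.1 to 126, 140 UMIs) of Ccnd3 and 17.6 CPM (11.2 to 26.4, 23 UMIs) of Ccnd1. Leydig-like cells, the steroid-making cells between the tubules, were at 183 CPM (172 to 196, 926 UMIs) of Ccnd3, 136 CPM (126 to 147, 688 UMIs) of Ccnd2 and 6.14 CPM (4.17 to 8.71, 31 UMIs) of Ccnd1. Ccnd3 was thus highest of all classes with at least 50 cells in Leydig-like cells and Ccnd2 in stromal-like cells. Ccnd1 was at 329 CPM (259 to 412, 76 UMIs) in myoid-like, 287 CPM (205 to 391, 40 UMIs) in endothelial-like and 145 CPM (123 to 169.7, 152 UMIs) in myeloid-like cells. The myoid-like UMIs lay in 29 of 83 cells, with up to 19 in a cell, a spread between cells that the intervals do not cover. The ratio of the myoid-like to the WT differentiating spermatogonia-like level of Ccnd1 was 1.17 (0.892 to 1.53). Among the A, B and E cyclins, no somatic KO class with at least 50 cells was above 13 CPM.

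Sertoli-like cells, the nurse cells of the tubules that no longer divide in the adult, had the lowest sum of the KO classes. The 10 cyclins summed to 80.5 CPM (74.9 to 86.4) in 1692 KO Sertoli-like cells, with Ccnd2 at 21.3 CPM (18.5 to 24.4, 205 UMIs) and Ccnd1 at 18.5 CPM (15.8 to 21.4, 178 UMIs). These are 22.2% and 28.7% of the levels over all KO barcodes, and the part of free RNA in them was not tested. The Ccnd2 UMIs lay in 87 of 1692 KO cells (5.14%, 4.14% to 6.30%), with up to 16 in a cell. The 32 WT Sertoli-like cells were at 63.9 CPM (38.5 to 99.8, 19 UMIs) of Ccnd2, 3.01-fold (1.77 to 4.82) the KO level, where all WT barcodes were at 5.05 CPM. These 19 UMIs lay in 7 of the 32 cells, with up to 6 in a cell. In the 7 WT Leydig-like cells Ccnd3 gave 13 UMIs, and the WT over KO ratio was 1.16 (0.617 to 2).

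The kinases and their helpers were placed beside the cyclins from 6 lists with 83 genes. Peaks are given among the library-by-class levels with at least 50 cells, which leaves out the smaller WT classes. Hspa2, a heat shock protein that the CDK1 and cyclin B1 complex needs in spermatocytes, peaked in WT early pachytene-like cells at 2111 CPM (2062 to 2161). Spdya, a CDK2 activator of meiosis, peaked in WT mid pachytene-like cells at 345 CPM (334 to 356), and Cdk1 itself in KO zygotene-like cells at 237 CPM (209.6 to 267). Cks2, a CDK subunit needed for the meiotic divisions, peaked in the same KO class at 682 CPM (635 to 731). Of the genes of this list with at least 20 UMIs, 0 of 14 were 2-fold higher and 2 lower (6.93% and 10.8% of all genes) in KO in spermatogonia, with a median log2 ratio of 0.07, and 0 of 13 were 2-fold higher and 1 lower (11.2% and 10.1% of all genes) in early prophase, with a median of 0.16, where all genes had medians of 0.11 and 0.18. The 2 lower in spermatogonia were Hspa2, at 235 (WT) and 48.2 (KO) CPM, a ratio of 0.205 (0.171 to 0.245), and Spdya, at 38.2 (WT) and 12.1 (KO) CPM, a ratio of 0.318 (0.210 to 0.487). Like Ccna1, both peak in WT pachytene-like cells, of which the KO library has none, and the part of free RNA in these ratios was not tested. The 1 lower in early prophase was Cdk6, at 23.0 (WT) and 8.13 (KO) CPM, a ratio of 0.353 (0.158 to 0.845).

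Among the kinase inhibitors, Cdkn2d peaked in WT mid pachytene-like cells at 208 CPM (199 to 217), Cdkn1c in WT elongating spermatid-like cells at 215 CPM (206 to 225) and Cdkn1a, the p21 inhibitor, in KO myeloid-like cells at 274 CPM (244 to 308). Pkmyt1, which like Wee1 holds CDK1 inactive, peaked in WT early pachytene-like cells at 119 CPM (107 to 131), where Ccnb1 was low, and Wee1 in KO differentiating spermatogonia-like cells at 83.1 CPM (74.4 to 92.7). In spermatogonia 1 of 9 were 2-fold higher and 1 lower (6.93% and 10.8% of all genes) in KO (median log2 ratio 0.29), and in early prophase 2 of 9 were 2-fold higher and 0 lower (11.2% and 10.1% of all genes) (median 0.51). Cdkn1c, which halts the cycle in the first gap phase, was at 9.06 (WT) and 19.8 (KO) CPM, a ratio of 2.19 (1.11 to 4.91), in spermatogonia, and at 25.3 (WT) and 52.8 (KO) CPM, a ratio of 2.09 (1.13 to 4.29), in early prophase. The lower one in spermatogonia was Cdkn2c, at 31.2 (WT) and 11.6 (KO) CPM, a ratio of 0.371 (0.238 to 0.591). Cdkn2c peaks in WT mid pachytene-like cells at 109.9 CPM (103.6 to 116.4), and the part of free RNA in this ratio was not tested. The other higher one in early prophase was Cdkn1a, from 3 WT and 41 KO UMIs, and Cdkn1b, with 0 WT and 28 KO UMIs, stays under 2-fold with WT set to 3.

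The pocket proteins and the transcription factors they serve had Rb1 highest in KO Sertoli-like cells, at 119.8 CPM (113 to 127), and Rbl2 in WT late spermatocyte-like cells, at 135 CPM (121 to 150.3). Mybl1, the factor A-MYB of the male pachytene programme, peaked in KO zygotene-like cells at 220.3 CPM (194 to 249), and Foxm1, an activator of division genes, in KO undifferentiated spermatogonia-like cells at 71.4 CPM (58.3 to 86.6). E2f8, a repressor of replication genes, was at 28.2 (WT) and 13.6 (KO) CPM, a ratio of 0.484 (0.309 to 0.778), in spermatogonia, and was the 1 gene of 15 past 2-fold there, in either direction, against 17.7% of all genes (median log2 ratio 0.17). In early prophase 0 of 12 were 2-fold higher and 0 lower (11.2% and 10.1% of all genes) (median 0.36). Of the machinery that destroys cyclins, Cdc20 peaked in KO zygotene-like cells at 503 CPM (463 to 546), as did Ube2s, at 952 CPM (897 to 1011), and Cul1, at 415 CPM (378 to 454). The second activator of the same ligase, Fzr1, peaked in WT late spermatocyte-like cells at 159 CPM (144 to 176), and its inhibitor Fbxo5 in KO preleptotene and leptotene-like cells at 85.6 CPM (70.5 to 103). Fbxw7, which marks cyclin E for destruction, peaked in that same class, where Ccne2 was also high in KO, at 215 CPM (190.4 to 241). In spermatogonia 0 of 12 were 2-fold higher and 0 lower (6.93% and 10.8% of all genes) in KO (median log2 ratio 0.10), and in early prophase 0 of 13 were 2-fold higher and 1 lower (11.2% and 10.1% of all genes) (median 0.24), the last being Skp2, at 20.7 (WT) and 5.69 (KO) CPM, a ratio of 0.275 (0.111 to 0.720). Skp2 peaks in WT elongating spermatid-like cells at 208 CPM (198 to 217), a class that the KO library lacks. The part of free RNA in its ratio was not tested.

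Of the other cyclins, Ccnk, a partner of the transcription kinases CDK12 and CDK13, peaked in WT mid pachytene-like cells at 564 CPM (549.9 to 579). It was at 340.3 (WT) and 173 (KO) CPM, a ratio of 0.509 (0.421 to 0.617), in early prophase. Ccni peaked in WT early pachytene-like cells at 314 CPM (295 to 334), as did Cntd1, a cyclin-like factor of crossover formation, at 221 CPM (205 to 238). Cntd1 was at 184 (WT) and 108 (KO) CPM, a ratio of 0.590 (0.458 to 0.767), in early prophase. Since Ccnk and Cntd1 peak in WT pachytene-like cells, which the KO library lacks, free RNA may enter these ratios, and its part was not tested. Ccnl1 was highest in KO myoid-like cells at 641 CPM (541 to 752), Ccnt2 in KO Sertoli-like cells at 50.6 CPM (46.2 to 55.3) and Ccny in KO zygotene-like cells at 122 CPM (103 to 144). In spermatogonia 0 of 17 were 2-fold higher and 0 lower (6.93% and 10.8% of all genes) in KO (median log2 ratio 0.25), and in early prophase 1 of 14 were 2-fold higher and 0 lower (11.2% and 10.1% of all genes) (median -0.04), the higher one being Ccng1, at 9.20 (WT) and 43.1 (KO) CPM, a ratio of 4.68 (1.78 to 17.5). Of the proliferation genes 0 of 15 were 2-fold higher and 0 lower (6.93% and 10.8% of all genes) in spermatogonia, and their median log2 ratio was 0.14. Mki67 was at 935 (WT) and 914 (KO) CPM, a ratio of 0.977 (0.911 to 1.05), and Top2a at 826 (WT) and 913 (KO) CPM, a ratio of 1.10 (1.03 to 1.19). Cenpf was highest in KO undifferentiated spermatogonia-like cells, at 1748 CPM (1681 to 1818), as was Aurkb, at 63.8 CPM (51.4 to 78.2), and Mcm3 and Tyms, which serve DNA replication, in KO differentiating ones, at 236 CPM (221 to 252) and 59.6 CPM (52.2 to 67.8). In early prophase 1 of 15 were 2-fold higher and 0 lower (11.2% and 10.1% of all genes) (median log2 ratio 0.14), the higher one being Tyms, at 9.20 (WT) and 18.7 (KO) CPM, a ratio of 2.03 (0.742 to 7.77).

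The genes most like each cyclin were sought over the 16 library-by-class levels with at least 50 cells, by Pearson correlation of log2(CPM + 10) over 11844 genes. The levels share their libraries and, within a library, their free RNA, so the values of r describe these profiles and no more. Nearest to Ccna1 were Tekt3 (r = 0.992), Ccdc83 (r = 0.99) and Toporsl (r = 0.99), all highest in WT late spermatocyte-like cells. Nearest to Ccna2 were Dusp9, Crabp1 and Sox11 (r = 0.982 to 0.984), to Ccnb1 Plk1, Foxm1 and Kif18b (r = 0.91 to 0.94), and to Ccnb2 Ran, Cdca3 and Kpna2 (r = 0.964 to 0.981). Ccne2 was nearest to Ddx43, Ccnb1ip1 and Zgrf1 (r = 0.972 to 0.987), and Ccne1 to Rhox13, a gate marker, Spc25 and H2bw2 (r = 0.895 to 0.899). For the D-type cyclins the nearest were Dennd11, Herc3 and Zfp623 for Ccnd1 (r = 0.901 to 0.913), Nfib, Hivep2 and Lamb1 for Ccnd2 (r = 0.912 to 0.964) and Tns1, Rbms1 and Pccb for Ccnd3 (r = 0.83 to 0.887).

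Nearest to Ccnb3 were Dcaf8l (r = 0.975), Elavl3 (r = 0.956) and Rad51ap2 (r = 0.954), a gate marker, all highest in KO zygotene-like cells. In zygotene-like cells Dcaf8l was at 117 (WT) and 813 (KO) CPM, a ratio of 6.93 (4.55 to 11.1). Elavl3 was at 139 (WT) and 424 (KO) CPM, a ratio of 3.06 (2.06 to 4.74). Rad51ap2, which helped to choose the cells, was at 426 (WT) and 488 (KO) CPM, a ratio of 1.14 (0.904 to 1.46). All 3 were chosen for their likeness to Ccnb3 over levels that include these cells.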

How the data were processed

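Whole testis of 1 WT and 1 KO library was measured. The values are whole UMI counts per gene and barcode that the authors deposited, written by Cell Ranger 6.1.2, per the file headers. The submitters' processing notes also name GRCm39 and Seurat 4.3. The step that called cells among the barcodes is not given in the sources used here. Such counts measure each captured molecule once, and free RNA stays in them.

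Cells were kept with at least 500 detected genes, at most 20% mitochondrial UMIs and at least 1000 UMIs. Depth was a median of 2336 UMIs per kept cell in WT and 4439 in KO. Each cell was placed by its share of UMIs from marker lists, with thresholds and dropped markers settled after marker levels, not cyclin levels, were seen; 9.61% of WT and 6.59% of KO cells fell in no gate, and 46 KO cells in several were left out. Scrublet marked 1 WT and 126 KO cells, too few in WT to have worked, and marked cells were kept. A class's counts were added up within its library and expressed as CPM. Levels have exact Poisson, ratios exact conditional binomial and shares Clopper-Pearson intervals, all at 95%, and cover counting error only. Ratios and their intervals were also run on simulated Poisson counts. These follow the counting model of the intervals and hold no spread between cells, so they cannot test for it. A ratio past 2-fold was counted only with at least 20 UMIs over both libraries, with counts under 3 set to 3.

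The members, lists and markers were chosen with earlier results of these data known. All 10 cyclins are named, the 3 genes of each partner list with the highest level or the largest ratio, and for each cyclin the 3 most correlated genes. Other genes were named after their values were seen, to spell out counts of 5 or fewer. The finer bins, the bands of division genes, minimums of 2000 or no UMIs and the pachytene limit of 0.35% were chosen after seeing the data. Other alternatives were clusters in place of gates, other thresholds, doublets removed, thinning, other filters and free RNA taken off. Python 3.11.15, numpy 2.4.6, scipy 1.17.1, pandas 2.3.3, scanpy 1.11.5 and matplotlib 3.10.9 were used.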

Additional observations from a re-analysis of the deposited data

How the results depend on the processing

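No paired analysis was possible because each genotype has 1 library, and for the same reason no library could be left out. The summed KO against WT log2 ratio of 0.00 in spermatogonia was -0.20 with cells thinned to 1000 UMIs and -0.11 centred on the median gene, and that of 0.25 in early prophase was 0.0708 centred. The summed level of 742 CPM in WT late spermatocyte-like cells was 782 with clusters, 812 and 818 with thresholds 1.5 times higher and lower, and 702 and 668 with 10% and 20% of the library profile taken off as free RNA. Ccna1 in WT mid pachytene-like cells, 187 CPM, was 176, 154, 233, 177 and 166 in the same order. The Ccnb3 log2 ratio of 2.88 in zygotene-like cells was 4.36 with pachytene markers under 0.35%, a limit that took out WT cells only and left 2 WT UMIs. The Ccnd1 log2 ratio in differentiating spermatogonia-like cells was -0.24 and turned to 0.20 with clusters. The causes of these moves were not tested. Of 377 other values for single-cyclin ratios, 362 stayed within the counting interval, 14 moved outside it and 1, that of Ccnd1, reversed. A reversal was counted only where the main interval excluded 1, so other ratios could change sign within their interval. The log2 ratio of Ccnb1 in differentiating spermatogonia-like cells, for example, went from 0.031 to -0.096 when centred. Intervals from few UMIs are wide, so staying within them says little. Of 116 values for the highest levels 102 stayed within their interval. The share of genes past 2-fold, 17.7% in spermatogonia and 21.3% in early prophase, was 48.4% and 53.6% with 1 UMI asked for and 8.53% and 11.6% with 100. Clusters gave no WT undifferentiated, preleptotene or zygotene class, so those ratios have no value there. The WT early germ classes held 28 to 126 cells and round spermatid-like cells a median of 1646 UMIs, which limits the precision of their levels.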
